A study of Homo sapiens with 6 samples.

Results

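The genes described here encode the proteins of the cytosolic ribosome. They were chosen as protein-coding rows of the deposited table whose GENCODE v44 symbol begins with RPL or RPS and a number, together with RPLP0, RPLP1, RPLP2 and RPSA. Kinases of the RPS6K group, RPS19BP1, RPS27L, Y-linked copies and pseudogene symbols were left out. The rule found 87 genes among the 57773 rows, on 21 chromosomes: 31 core genes of the small subunit, 46 core genes of the large subunit, 7 paralogues of a core gene, and 3 readthrough genes that join a member to its neighbour. Of the 87, 82 had a mean of at least 0.5 RPKM (reads per kilobase of gene model, scaled to the library total) over the 6 libraries and were tested.

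All cells were H460, a human non-small-cell lung cancer line. Cells were transfected for 48 hours with 50 nM of ON-TARGETplus siRNA, either a non-targeting control (siNT, 3 libraries) or siHKlincR1_2 against the long noncoding RNA HKlincR1 (siHKlincR1, 3 libraries), and polyadenylated RNA was sequenced. The replicates were described as biological. Because a single siRNA and a single line were used, an effect of HKlincR1 loss and any other effect of that siRNA cannot be told apart. Library totals worked back from the RPKM values lay between 24980280 and 30521000 reads. The keratins KRT8, KRT18 and KRT19 were at 28.1 to 88.5 RPKM, the epithelial markers EPCAM and CDH1 were at 0.110 RPKM or less, and none of the 4 immune or 2 endothelial markers in the table reached 0.5 RPKM. Of the fibroblast markers, COL1A1 and PDGFRB were at 0.419 to 1.23 RPKM and COL1A2 was at 0.013 RPKM or less. The targeted gene HKlincR1 (ENSG00000170846) was at 3.62, 3.47 and 3.83 RPKM with siNT and at 0.563, 0.628 and 0.390 RPKM with siHKlincR1, so the groups were apart (limma log2 fold change -2.59, SE 0.17, adjusted p = 0.00245, and 0.0138 in the fit that blocks on replicate number).

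Ribosomal proteins are needed in equal numbers, because each ribosome carries nearly all of them once, with the stalk proteins as the main exception. Their mRNAs are among the most abundant in growing cells. Many begin with a C followed by a run of pyrimidines, the 5′ terminal oligopyrimidine (TOP) motif, through which the kinase mTOR and the protein LARP1 adjust their translation. Their genes have also left large numbers of processed pseudogenes in the human genome, which are intronless copies of the mRNA and can be nearly identical to it.

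The start sites below show what this motif looks like in members whose levels or differences are described later. Each is 30 bases of RefSeq sequence on the GRCh38.p14 build, 20 before and 10 from the annotated start, and capitals mark the unbroken run of C and T that begins at the start if its first base is C. RPLP2 (chr11:809947-809976, plus strand), RPL26 (chr17:8383184-8383213, minus strand), RPL36A (chrX:101390991-101391020, plus strand), RPS27 (chr1:153990742-153990771, plus strand) and RPL12 (chr9:127451397-127451426, minus strand) have a run, RPL36AL (chr14:49620617-49620646, minus strand) has a short one, and RPS26 (chr12:56041898-56041927, plus strand) and RPS4X (chrX:72277239-72277268, minus strand) have none at this annotated start.
RPLP2: gcctcttgcgtcggcgccttCCTTTTCCTC
RPL26: accggaagcagcgtgtagttCTCTTCCCTT
RPL36A: ttccgtttgcctcgcggtttCTTTCTTTCC
RPS27: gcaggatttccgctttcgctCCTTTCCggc
RPL12: cttgtccgcgcgatttccggCCTCTCggct
RPL36AL: tccgcctgtttcttccctttCCTgttaggc
RPS26: gctgggagacacataacctcgattttcttc
RPS4X: cgcgcgcagtctccagccccaatttctacg

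Over all members, 69 had a RefSeq promoter entry, and 44 of these (63.8%) had C followed by 4 or more C or T exactly at the annotated start. The same holds for 4.04% of all 27305 promoters and for 5.59% of the 8933 promoters of tested protein-coding genes. When the start was allowed to lie up to 5 bases to either side, the share was 76.8% of member promoters and 21.1% of all promoters. The search read the transcribed strand only. A missing run says only that these letters are not at the annotated base.

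The 77 core members had a median level of 89.0 RPKM, against 5.05 RPKM over all 15451 tested genes. 34 core members were above 100 RPKM and 6 were under 10 RPKM. The highest was RPS4X, a small subunit protein encoded on the X chromosome, at 412, 436 and 435 RPKM with siNT and 447, 461 and 450 RPKM with siHKlincR1. RPL19, RPS6 and RPL8 followed, with means of 385, 376 and 356 RPKM. RPS6 is the small subunit protein phosphorylated by the S6 kinases. RPS4X stood clear of RPL19 in every library, whereas most neighbours in the order did not: for 68 of 76 neighbouring pairs the ranges over the 6 libraries overlapped.

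**Figure D1:**
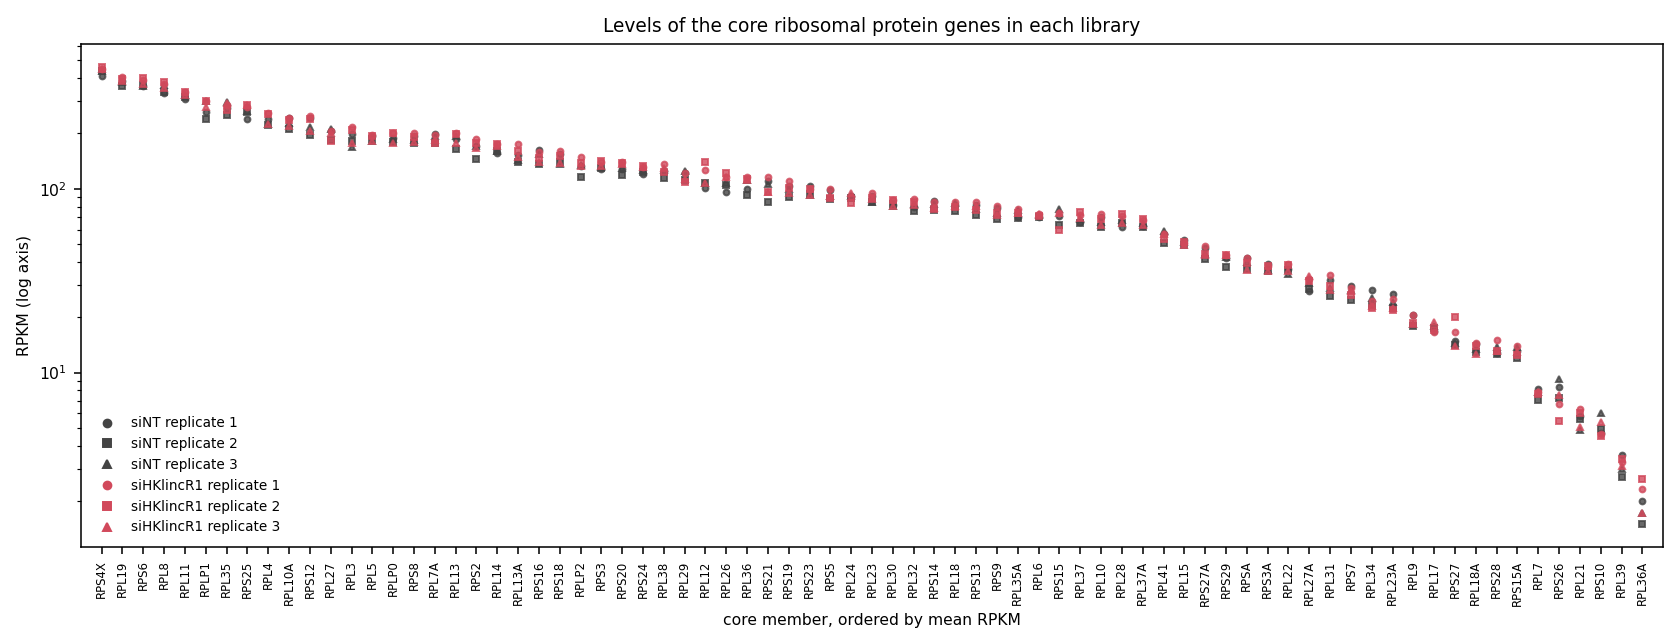
RPKM (log axis) of 75 of the 77 core members, ordered by mean over the 6 libraries, with 1 point for each library (grey siNT, red siHKlincR1, shape by replicate). Levels fall from RPS4X at 440 RPKM to RPL36A at 1.98 RPKM, and the 6 points of a gene mostly lie close together.

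At the other end were RPL36A, RPL39, RPS10, RPL21 and RPS26. RPL36A was at 2.01, 1.502 and 1.71 RPKM with siNT and 2.34, 2.62 and 1.71 RPKM with siHKlincR1. The core level thus spanned 222-fold from the highest to the lowest mean. RPKM divides by the length of the whole gene model, which was 5.69 times the coding length in the median core member, from 1.94 times for RPS12 to 28.0 times for RPL37. With the longest protein-coding transcript as the length instead, 3 of the 5 highest members (RPS4X and RPS6 among them) and 4 of the 5 lowest (RPL36A, RPL21, RPS10, RPS26) kept their place among the 5.

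Many of the low members have copies of their coding sequence elsewhere in the genome. Every stretch of 75 bases, the read length, was taken from the coding sequence of each member and looked up in the rest of the GRCh37 genome. For 10 core members at least 90% of these windows occurred elsewhere without a mismatch, and their median level was 7.57 RPKM, from 1.98 RPKM for RPL36A to 55.6 RPKM for RPL41. For the 26 core members with under 10% of windows elsewhere it was 104 RPKM, and none of these was under 24.4 RPKM, so the levels of these 2 groups overlapped. All of RPL36A, RPL39, RPL21, RPS26, RPS27, RPS28 and RPL41 could be found elsewhere in this way. Over the 82 tested members, the share of windows found elsewhere and the mean RPKM had a Spearman correlation of -0.47, a description over genes that were measured in the same libraries.

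Reads were also counted on pseudogene rows. The table holds 1590 pseudogenes named after a member, of which 1129 had at least 1 read. Together they held 350360 reads in the mean library, beside 777113 on the members, or 31.1% of the sum. For 18 members the named pseudogenes held more reads than the gene itself. RPL36A had a mean of 221 reads per library, and its named pseudogenes 9207. Of these reads 98.0% lay on RPL36AP37, which is at chr11:16996240-16996560 (GRCh37), and all 244 coding windows of RPL36A occur in that locus. RPL39 had 192 reads against 5652, RPS27 423 against 7878, RPL7 636 against 8445 and RPL21 359 against 3067. The 18 also included abundant members such as RPLP0, RPL7A, RPS2, RPL13A and RPL26. At RPS4X and RPLP2 the balance was the reverse: RPS4X had 37361 reads against 1838, and RPLP2 had 7423 against fewer than 1.

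**Figure D2:**
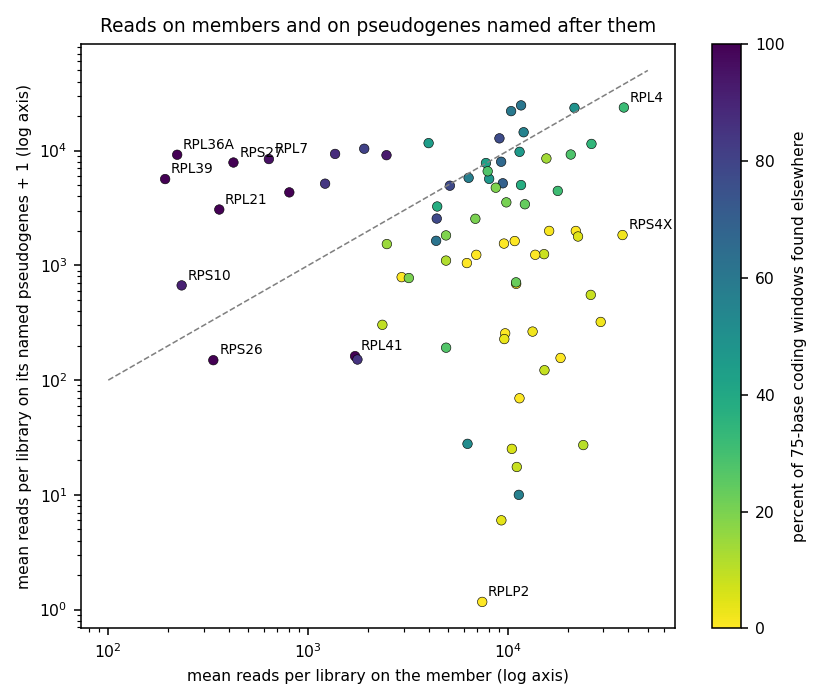
Mean reads per library on each of 75 core members (x axis, log) and on the pseudogenes named after it plus 1 (y axis, log), coloured by the percent of 75-base coding windows found elsewhere. Members above the dashed line of equality have more reads on their pseudogenes, and RPL36A, with 221 reads against 9207, lies farthest above it.

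With the reads of named pseudogenes added to each member, the range of core means narrowed from 222-fold to 49.7-fold. RPS26 was an exception among the low members, since its named pseudogenes held only 148 reads in the mean library, beside 335 on the gene. How reads with several equal matches were counted is not given in the sources used here, and whether pseudogene reads came from the parent gene was not tested.

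Between siHKlincR1 and siNT, no member was called at an adjusted p under 0.05 in limma's test over all 15451 genes, in either direction. The background was 0.44% of tested genes called lower and 0.0129% called higher, or 0.356% and 0.00647% with a fold change above 1.5 as well. At an unadjusted p under 0.05, RPS26 was lower (1 of 82, background 9.19%) and RPL26, RPL27A and RPL14 were higher (3 of 82, background 7.04%). voom on the reads worked back likewise called 0 members (background 0.88% lower and 0.0518% higher). Blocking on replicate number also called 0 members, although it called 1.72% of all genes lower and 1.2% higher. At an unadjusted p under 0.05 it found 2 members lower and 8 higher, against 14.0% and 12.3% of all genes. The differences were small as well as uncalled: for 79 of the 82 members the 95% interval lay inside a 1.5-fold change either way, which held for 66.5% of all tested genes. RPL36A and RPS26 were among the 3 exceptions.

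Most members nevertheless lay slightly above 0. The log2 fold change was positive for 68 of 82 members (82.9%), against 50.2% of all tested genes, with a median of 0.06 and quartiles of 0.02 and 0.10, beside a median of 0.00 over all genes. The groups did not overlap for 12 members, each of them higher with siHKlincR1 (14.6%, background 10.1%), and for 0 members lower (background 11.9%). Among them were RPL14, RPL26, RPL27A, RPL37, RPS3, RPS4X, RPS6, RPS20, RPS24, RPS25 and RPS29. When RPKM were rescaled to the sum outside the members, 49 of 82 were positive with a median of 0.02. That scaling moved all genes alike, to a median of -0.04, so the members' median lay 0.06 above that of all genes under both scalings.

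**Figure D3:**
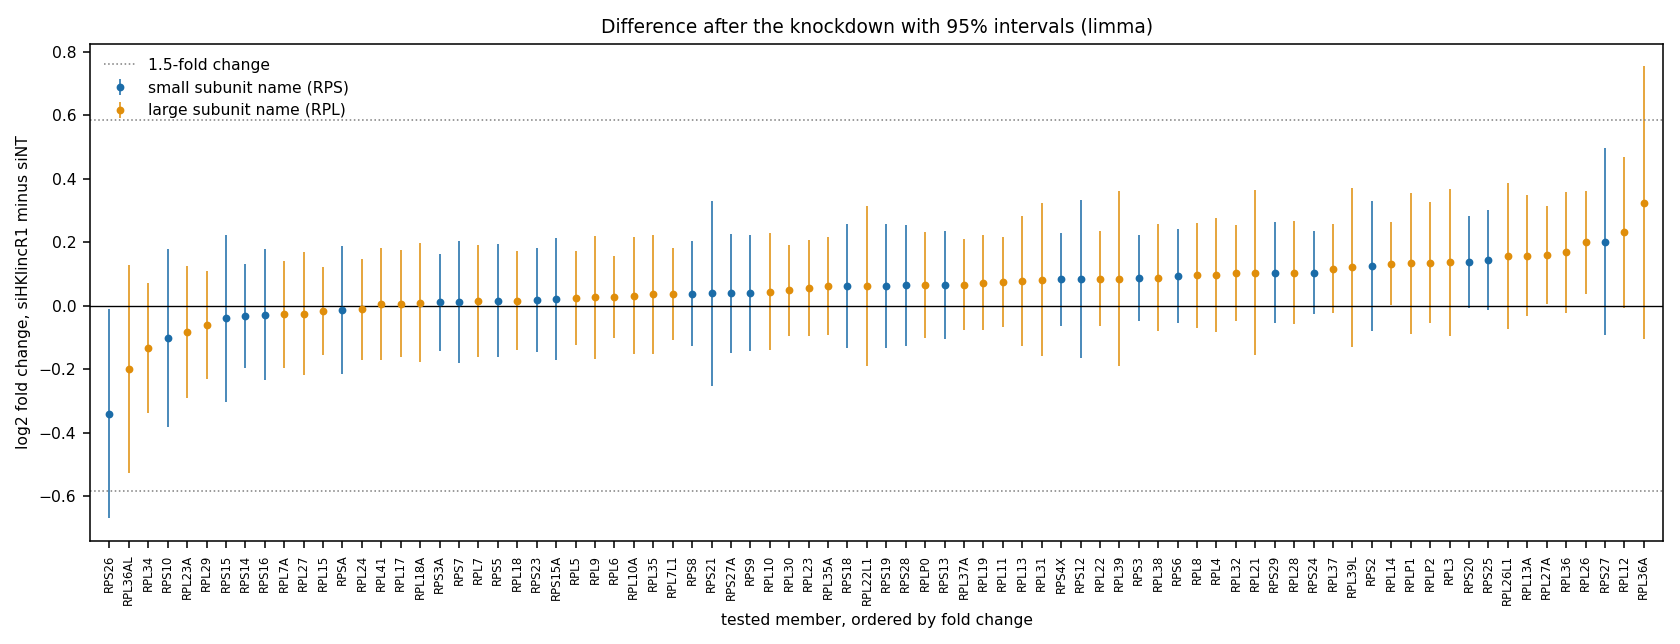
Log2 fold change of 80 of the 82 tested members (siHKlincR1 minus siNT) with its 95% interval from limma, ordered by size, blue for RPS and orange for RPL symbols. Dotted lines mark a 1.5-fold change. Nearly all intervals cross 0 and stay inside the dotted lines, and RPS26 lies lowest.

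The median over members also depended on single libraries. Members deviated from their own mean over the 6 libraries by a median of 0.01, -0.09 and 0.00 on the log2 scale in the siNT libraries and by 0.08, 0.03 and -0.01 in the siHKlincR1 libraries. The second siNT library was thus the lowest, and 41 of the 82 members had their lowest value there, while 39 had their highest in the first siHKlincR1 library. Over all tested genes the same deviations lay between -0.01 and 0.01. Without the second siNT library 50 of 82 members were positive and the median was 0.03, and without the first siHKlincR1 library 53 were positive and the median was 0.03.

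Most genes of both subunits had a positive fold change. Among the core small subunit genes 25 of 31 were positive with a median of 0.06, and among the large subunit genes 39 of 46 with a median of 0.07. Summed over members, small subunit genes held 0.645 ± 0.00499 of the large subunit's RPKM with siNT and 0.649 ± 0.00388 with siHKlincR1 (SD, n = 3). The members together took 2.99% ± 0.0635 of all RPKM with siNT and 3.05% ± 0.149 with siHKlincR1 (SD, n = 3). As a share of reads they took 2.94% ± 0.0968 and 3.10% ± 0.120, and their summed level was 9149 ± 333 RPKM and 9596 ± 292 RPKM (SD, n = 3). The groups overlapped in each of these measures. Each of these is a relative measure from bulk libraries of a single line. A change in RNA per cell and a change in the mix of cells cannot be told apart in them.

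The lowest fold change belonged to RPS26, a small subunit protein that lines the mRNA exit channel. It was at 8.31, 7.29 and 9.26 RPKM with siNT and 6.72, 5.42 and 7.52 RPKM with siHKlincR1. The third siHKlincR1 library was above the second siNT library, so the groups overlapped. The log2 fold change was -0.34 (SE 0.14), with a limma adjusted p of 0.302, and 0.0587 with the block. voom with the replicate block, an alternative added after the data were seen, called RPS26 lower (adjusted p = 0.0427) and RPL26 higher (adjusted p = 0.0476), where 7.52% of all genes were called lower and 5.59% higher. All coding windows of RPS26 occur elsewhere in the genome.

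RPL26, a protein near the exit of the nascent peptide tunnel, had the smallest adjusted p of the members. It was at 95.4, 105 and 107 RPKM with siNT and 116, 122 and 115 RPKM with siHKlincR1. The lowest siHKlincR1 library was above the highest siNT library (p = 0.10 in a two-sided exact permutation test, which cannot go lower with groups of 3). Its log2 fold change was 0.20 (SE 0.07), with a limma adjusted p of 0.256 and 0.0974 with the block. RPL27A and RPL14, also large subunit proteins, had log2 fold changes of 0.16 and 0.13 without overlap of the groups.

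Of the other members with a large fold change, RPL12, which binds at the base of the stalk, was at 101, 108 and 108 RPKM with siNT and 126, 141 and 108 RPKM with siHKlincR1. The third siHKlincR1 library lay within the siNT range. The log2 fold change was 0.23 (SE 0.10, limma adjusted p = 0.317). Without that library it was 0.33 with an adjusted p of 0.0478, the only call of a member among the 6 fits that left out a library, at a background of 2.97% of genes called higher. RPS27 and RPL36A had fold changes of 0.20 and 0.32 on the log2 scale, from 423 and 221 reads in the mean library. With pseudogene reads added these were 0.15 and 0.10. On the lower side RPL34, RPS10 and RPL23A had values of -0.13, -0.10 and -0.08, and with pseudogene reads added RPS10 and RPL23A turned to 0.15 and 0.03.

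By role, the stalk proteins RPLP0, RPLP1 and RPLP2, which recruit translation factors to the ribosome, had log2 fold changes of 0.06, 0.13 and 0.14. RPL5 and RPL11, which bind 5S rRNA and can hold the p53 ligase MDM2, were at 0.02 and 0.08. RPL5 was at 194, 187 and 182 RPKM with siNT and 197, 193 and 182 RPKM with siHKlincR1, with both groups spanning nearly the same range. Of the 8 listed proteins at the tunnel exit 7 were positive, and of the 9 along the mRNA path 5. The fusion genes RPS27A and FAU, which make ubiquitin or a relative joined to a ribosomal protein, were at 0.04 and 0.06. RACK1, a signalling scaffold on the small subunit, was at -0.01. None of these was called by limma.

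Most tested paralogues differed widely in RPKM from the genes they resemble. RPKM divides by the length of each whole gene model, and the pairs are not compared at other lengths here. RPL36AL, whose coding sequence is 89.9% identical to that of RPL36A (32 of 318 bases differ), was at 163, 177 and 203 RPKM with siNT and 145, 140 and 192 RPKM with siHKlincR1, far above RPL36A. Its groups overlapped, and its log2 fold change was -0.20 (SE 0.14, limma adjusted p = 0.490, block 0.132). RPL39L, 94.8% identical to RPL39, had a mean of 14.7 RPKM against 3.17 RPKM, and none of its coding windows occur elsewhere. RPL22L1 was close to RPL22, with means of 33.0 and 36.7 RPKM. RPL7L1 was at 27.6 RPKM and RPL7 at 7.72 RPKM, while RPL26L1, 84.1% identical to RPL26, was lower than it at 22.6 RPKM against 110 RPKM. Part of this order depended on how pseudogene reads were counted. With the reads of named pseudogenes added, RPL39 had a mean of 96.3 RPKM and RPL7 one of 110 RPKM, so both lay above their paralogues. RPL22 rose to 72.1 RPKM, no longer close to RPL22L1, and RPL36A to 84.5 RPKM, still below RPL36AL. RPL3L, known from muscle, and RPL10L, known from testis, had at most 6 and 5 reads in any library. The readthrough genes RPL17-C18orf32 and RPL36A-HNRNPH2 were under 0.5 RPKM, and RPS10-NUDT3 was listed at 0 in each library. How reads shared by a readthrough row and its member were counted is not given in the study's methods. Any effect of this on the levels of RPL17, RPL36A and RPS10 was not tested.

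The seed of the siRNA guide strand, its positions 2 to 8, can pair with GTGTGCT in a 3′ UTR. Of the 81 tested members with a 3′ UTR of at least 30 bases, 3 hold this site (3.70%), against 1513 of 10765 tested genes (14.1%). The median 3′ UTR was 174 bases in these members and 1366 bases over those genes. The guide, read as the reverse complement of the sense strand given in the labels, and the sites of RPL37 (chr5:40827471-40827499, minus strand), RPL4 (chr15:66791631-66791659, minus strand) and RPL28 (chr19:55902189-55902217, plus strand), on GRCh37, are shown with the seed or its match in capitals.
siHKlincR1_2 guide: aAGCACACgaguauacuuc
RPL37: ttatagcttggGTGTGCTttaaactgcaa
RPL4: aacatgacttgGTGTGCTctgtaaagctt
RPL28: tggagtcctcaGTGTGCTgagcaaacgtg

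The 3 members with a site had positive fold changes. RPL37 was at 65.9, 65.2 and 68.1 RPKM with siNT and 72.3, 74.4 and 69.4 RPKM with siHKlincR1, each siHKlincR1 library being the higher. Its log2 fold change was 0.12 (SE 0.06, limma adjusted p = 0.360). RPL4 and RPL28, both large subunit proteins, had log2 fold changes of 0.10 each, with overlapping groups. A match of these letters is a description and shows no action of the siRNA there.

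Members were also grouped by what the rule did not use. The 29 tested members with a small nucleolar RNA gene inside their span on the same strand had a median log2 fold change of 0.08. Of these, 26 were positive. The 43 tested members with a pyrimidine run at the start had a median of 0.07, and the 23 with a promoter entry and no run exactly there 0.04. The Spearman correlation between the share of coding windows found elsewhere and the log2 fold change was -0.11 over the 82 members. None of these groups held a member called by limma.

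Genes that make or assist ribosomes were compared with the members by count. Of 21 other tested genes with TOP mRNAs 18 were positive, with a median of 0.06 and 0 called, and PABPC1, the poly(A)-binding protein, had the largest value. It was at 267, 289 and 257 RPKM with siNT and 334, 351 and 293 RPKM with siHKlincR1, without overlap of the groups (log2 fold change 0.27, limma adjusted p = 0.246, block 0.0594). In voom with the replicate block, at a background of 5.59% called higher, 3 of the 21 were called higher: PABPC1 (adjusted p = 0.0145), EIF3H, a subunit of an initiation factor (0.0239), and the elongation factor EEF2 (0.0452). NOP53 followed at 0.23, and HNRNPA1 and RACK1 had the lowest values, -0.01 each. Of 60 ribosome biogenesis factors 44 were positive, with a median of 0.08 and 0 called. Blocking on replicate number called 3 of these higher. Because the count is 3 they are named: the assembly kinase RIOK1 (0.36, adjusted p = 0.0432), the acetyltransferase NAT10 (0.40, adjusted p = 0.0444) and RSL24D1, which takes part in large subunit assembly (0.43, adjusted p = 0.0282), in limma at a background of 1.2%. voom with the replicate block called 8 of the 60 higher and 0 lower. The factor DDX10 had the largest value (0.57, limma adjusted p = 0.310) and MRTO4 and NOP58 the lowest, at -0.15 and -0.13.

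Of the 14 RNA polymerase I genes 11 were positive (median 0.14), led by POLR1G (0.42) and POLR1H (0.39), with TAF1B (-0.44) and UBTF (-0.15) the lowest and 0 called by limma. In voom with the replicate block POLR1H was called higher (adjusted p = 0.0366) and TAF1B lower (adjusted p = 0.0228). That is 1 of 14 each way, where 5.59% of all genes were called higher and 7.52% lower. The 10 dedicated chaperones of ribosomal proteins had a median of 0.07 with 6 positive and 0 called, from PDCD2L (0.20) and IPO5 (0.14) down to HEATR3 and AAMP (-0.05 each). Mitochondrial ribosomal proteins, which serve the separate ribosome of that organelle, had a median of 0.02 with 41 of 75 positive, and proteasome subunits a median of -0.06 with 12 of 43 positive. The libraries did not overlap, with siHKlincR1 higher, for 18 of 75 mitochondrial ribosomal genes, 15 of 60 biogenesis factors and 5 of 14 RNA polymerase I genes. The same held for 4 of 21 other TOP genes, 3 of 10 chaperones and 1 of 43 proteasome genes, beside 12 of 82 members (background 10.1%). With siHKlincR1 lower it held for 1 mitochondrial, 1 RNA polymerase I and 5 proteasome genes, and 0 in the other lists (background 11.9%). Whether the members differ from these groups was not tested.

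The tested genes outside the rule whose log2 values followed the mean of the members most closely over the 6 libraries were EME2, COX5A, TTC23, DRG2 and the pseudogene EZH2P1, with Pearson correlations of 0.99, 0.98, 0.98, 0.98 and 0.97. These are the highest of the tested genes outside the rule and rest on 6 libraries, so they are given as a description.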

How the data were processed

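Gene expression was measured by paired-end sequencing of strand-specific polyA libraries from H460 cells. Reads were assigned to the gene models of Ensembl v74 (hg19) with Rsubread by the authors, who deposited unrounded RPKM values for each library; per the labels, CASAVA 1.8.2 and featureCounts were used. The aligner, the strand setting and the treatment of multiply mapped reads are not given in the sources used here. The study tested counts; the deposited unit is RPKM, so limma on the log scale was used. Whole reads were worked back for 100% of nonzero values (tolerance 0.0001 reads), with 89.9% to 91.1% of each library on genes.

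Tests used limma 3.58.1 in R 4.3.3 (lmFit, eBayes with trend) on log2(RPKM + 0.1) for the 15451 genes averaging 0.5 RPKM or more, with Benjamini-Hochberg adjustment over all of them, so fold changes of low genes are understated. Names came from GENCODE v44 on GRCh37, which holds 55538 of 57773 identifiers. Deviations from the group mean had correlations of 0.142, 0.137 and 0.266 between same-numbered libraries, against -0.209 to 0.113 for others. Deviations within a group sum to 0, so these values are not independent, and pairing was not tested. The replicate block is given where it bears on a result. The fit was also run on simulated data with equal added spread for all genes and no replicate effect. Members, lists and the rule for named genes (the extremes of level and change, paralogues, readthrough genes, seed-site genes, listed roles and the extremes of each list) were chosen with earlier results of these data known. A few members and listed genes are left out of the text and figures.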

Additional observations from a re-analysis of the deposited data

How the results depend on the processing

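HKlincR1 stayed lower and past the threshold under every alternative run, with log2 fold changes from -2.80 to -1.61. The counts of 0 members called lower and 0 called higher held under each pseudocount, filter, scaling, trend and fold setting, with voom and with the replicate block, which changed no call of a member. Apart from the block, these settings called few genes at all, from 16 to 136 lower and from 1 to 12 higher. A count of 0 among 82 members therefore says little about stability there. The block called 266 genes lower and 186 higher. Leaving out 1 library gave 0 lower and from 0 to 1 higher, the 1 being RPL12, in a fit that called 2.97% of all genes higher. The other fits of this kind called from 7 to 18 genes lower and from 0 to 2 higher. Further fits were chosen after the data were seen. Of these, voom with the replicate block called 1 member lower and 1 higher, where 7.52% of all genes were called lower and 5.59% higher. Adding pseudogene reads called 0 members, where 68 genes were called lower and 2 higher. The median log2 fold change of members lay between 0.02 and 0.09 throughout. Over protein-coding genes alone the members' share of RPKM was 3.91% with siNT and 4.003% with siHKlincR1.

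Some small differences changed sign. With pseudogene reads added RPS10 became 0.15 and RPL23A 0.026. Part of the reads added to RPS10 lay on RPS10P7, which had more reads with siHKlincR1, and their origin was not tested. Rescaling to RPKM outside the members lowered all genes alike, to a median of -0.04 from 0.00, and with that common shift RPL5 became -0.017, RPL7L1 -0.0026 and RPS27A -0.00075. With 1 library left out, RPS27A ranged from -0.014 to 0.091, RPL22L1 from -0.022 to 0.15 and RPS10 from -0.17 to 0.0055. Members with few reads of their own, such as RPL36A and RPL39 (221 and 192 in the mean library), are the least precisely measured core genes for depth.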
